A study of Mus musculus with 15 samples.

Results

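Deletion of Lilrb4a in the absence of amyloid was examined in the thalamus by bulk RNA-seq of 6 of the 15 libraries of the study, 3 labelled EL and 3 labelled ELKO. EL mice carry human APOE4 on both alleles (APOE4+/+) and an intact Lilrb4a gene (Lilrb4a+/+), and ELKO mice carry the same APOE4 knock-in and lack Lilrb4a on both alleles (Lilrb4a-/-). Neither group carries the 5xFAD transgenes, which are expressed in neurons and lead to amyloid plaques. The other 9 libraries, 5EL (n = 5) and 5ELKO (n = 4), are the same 2 Lilrb4a genotypes with 5xFAD, and are used here only for comparison. All mice were 4.5 months old, were perfused with saline, and the thalamus was dissected from the right hemisphere. Lilrb4a-/- is the genotype of the whole animal, so the receptor is missing from peripheral myeloid cells as well as from microglia. Groups were taken from the genotype label, and the same-numbered replicates of EL and ELKO were treated as 3 pairs. Values are the deposited log2 levels. A difference is ELKO minus EL on that log2 scale, given with its standard error (SE) from the paired limma fit. A difference given with its SE passed an unadjusted p under 0.05 unless the text says that it was above, and its Benjamini-Hochberg adjusted p over all tested genes was 0.691 or higher. The filter kept the 15730 of 29659 genes that reached 10 on the linear scale in 3 or more of these 6 libraries. The read depth behind these values is unknown, because the deposited values hold no counts.

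Lilrb4a encodes an inhibitory receptor of myeloid cells. It belongs to a family of immunoglobulin-like receptors that act as brakes on myeloid cells, in part by bringing phosphatases to the membrane. In the brain it is known mainly from microglia that surround amyloid plaques, and resting microglia carry little of it. The comparison of ELKO with EL addresses what the deletion does to the thalamus before any plaque is present.

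The gene has a near-identical neighbour. Lilrb4a lies on chromosome 10 from 51490956 to 51496611 on the plus strand of GRCm38, and Lilr4b lies just upstream on the same strand, from 51480632 to 51486703. The GENCODE M21 annotation also places the readthrough gene Gm49339 over both and the gene Gm40645 over Lilrb4a. The coding sequences of 1008 and 912 bases agree at 96% of the 910 aligned positions, and their longest shared run is 126 bases. Of the 909 windows of 100 bases in the Lilrb4a coding sequence, 41 (4.5%) also occur in Lilr4b, so most reads of that length could be told apart and some could not. The stretch of 120 coding bases in which the genes differ most, in exon 3 of each, is shown because reads from it can be assigned to one gene or the other. It lies at chr10:51491505-51491624 in Lilrb4a and chr10:51481211-51481330 in Lilr4b (GRCm38, plus strand), and capitals mark the 12 bases that differ.
Lilrb4a: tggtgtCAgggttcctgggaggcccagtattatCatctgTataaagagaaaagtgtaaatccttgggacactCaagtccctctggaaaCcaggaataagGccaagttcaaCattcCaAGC
Lilr4b: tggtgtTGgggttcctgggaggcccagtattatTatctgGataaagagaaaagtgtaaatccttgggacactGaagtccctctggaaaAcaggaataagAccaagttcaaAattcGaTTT

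The targeted gene was below the filter in all 6 libraries. Lilrb4a stood at 2.34, 2.42 and 2.38 in EL replicates 1, 2 and 3 and 2.33, 2.33 and 2.33 in ELKO replicates 1, 2 and 3. Every ELKO library lay below every EL library, with EL replicate 1 close to them. The gene was therefore not tested. The 5ELKO libraries, which also lack the gene, stood at 2.33, 2.33, 2.33 and 2.33. The level of 2.33 was therefore shared by every library without Lilrb4a, and it is not by itself a measure of remaining transcript. The part of the gene that was removed is not given in the sources used here. Lilr4b stood at 0.73, 0.73 and 0.79 in EL and 0.73, 0.73 and 0.73 in ELKO, with EL replicate 3 the single library above the rest. Pirb and Lilra5, further inhibitory and activating members of the same receptor family, were also below the filter, at 2.58, 2.52 and 2.54 in EL and 2.54, 2.51 and 2.56 in ELKO for Pirb and at 2.47, 2.45 and 2.51 in EL and 2.45, 2.43 and 2.44 in ELKO for Lilra5. No member of the Lilr family was therefore tested. The 5 tested genes within 1 Mb of Lilrb4a (Ascc3, Sim1, Dcbld1, Gopc and Nus1) differed by -0.06 to 0.03, with p from 0.248 to 0.945.

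Several libraries stood apart before any comparison. Apoe, the mouse gene that the human APOE4 knock-in is meant to replace, was 5.92, 6.10 and 6.33 in EL replicates 1, 2 and 3 and 10.90, 6.05 and 5.95 in ELKO replicates 1, 2 and 3. It was between 5.92 and 6.37 in the other 14 libraries of the study, so the library labelled ELKO replicate 1 goes against the shared genotype on this gene, and the main counts are also given without it. Tomm40 and Apoc1, neighbours of Apoe, did not share this excess: Tomm40 was 10.32, 10.33 and 10.43 in EL and 10.26, 10.30 and 10.35 in ELKO and Apoc1 was 5.15, 5.05 and 4.96 in EL and 4.78, 4.96 and 5.004 in ELKO. ELKO replicate 1 also held the highest level of the glucocorticoid-responsive genes Zbtb16 (9.23 against at most 8.27 elsewhere), Fkbp5 (10.49 against at most 9.83) and Plin4 (9.89 against at most 9.13). ELKO replicate 2 had 24 genes over 1 log2 unit above all 5 other libraries, led by the choroid plexus genes Ttr (14.66 against at most 9.37) and Kl (9.99 against at most 7.08). EL replicate 1 had the highest Alb, the plasma albumin gene of liver, at 8.59 against at most 6.23. EL replicate 3 had the highest hemoglobin transcripts and 18 genes over 1 log2 unit below all others, among them Gad2, Sst and Calb2. All 28 thalamic relay neuron markers passed the filter. So did all 20 choroid plexus genes and 24 of 28 cortex and hippocampus genes, so passing the filter does not test the tissue label.

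No gene separated ELKO from EL after adjustment. The count at an adjusted p under 0.05 was 0 of 15730 (0%, limma with Benjamini-Hochberg adjustment), and the smallest adjusted p was 0.691. At an unadjusted p under 0.05, 630 genes (4.01%) were higher and 480 (3.05%) lower in ELKO. At the exploratory threshold of the study, p under 0.05 with a fold over 1.2 (0.263 on the log2 scale), 206 genes (1.31%) were higher and 82 (0.521%) lower, and of these 170 and 57 had 1 sign in all 3 pairs. Over all genes, 2337 (14.9%) were higher in ELKO in all 3 pairs and 2168 (13.8%) lower. The 3 ELKO libraries lay above all 3 EL libraries for 323 genes (2.05%) and below them for 398 (2.53%). A single gene cannot reach p under 0.10 in an exact permutation test of 3 against 3, or under 0.25 when genotypes are exchanged within 3 pairs. Without the pairs as a block, 18 genes passed the exploratory threshold as higher and 26 as lower, with 0 at an adjusted p under 0.05. Without ELKO replicate 1, in a fit that also dropped the block, these counts were 25 and 25, and again 0 after adjustment. With the block kept, EL replicate 1 has no partner and the difference rests on pairs 2 and 3, whose fit is given below. When each library was recentred on its own median, 467 genes were higher and 635 lower at an unadjusted p under 0.05, a turn in the balance of directions.

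The replicate number carried more of the variation than the genotype. Of the sum of squares over all tested genes, 67.4% went with the replicate number (40% of the degrees of freedom), 13.8% with genotype (20%) and 18.8% was left over (40%). At an adjusted p under 0.05, 1808 genes (11.5%) differed between replicate numbers. This count was 3705 without replicate 1, 1898 without replicate 2 and 0 without replicate 3. Replicate 3 of both groups differed from replicates 1 and 2 in the same way. It was low in habenula, inhibitory neuron and ciliary genes and high in nuclear genes of the respiratory chain, whose mean level was 11.20 and 11.15 in replicate 3 of EL and ELKO and between 10.70 and 10.82 in the other 4 libraries. The plot of mean list levels shows this offset in the habenula, inhibitory neuron, cilia and respiratory chain panels.

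**Figure D1:**
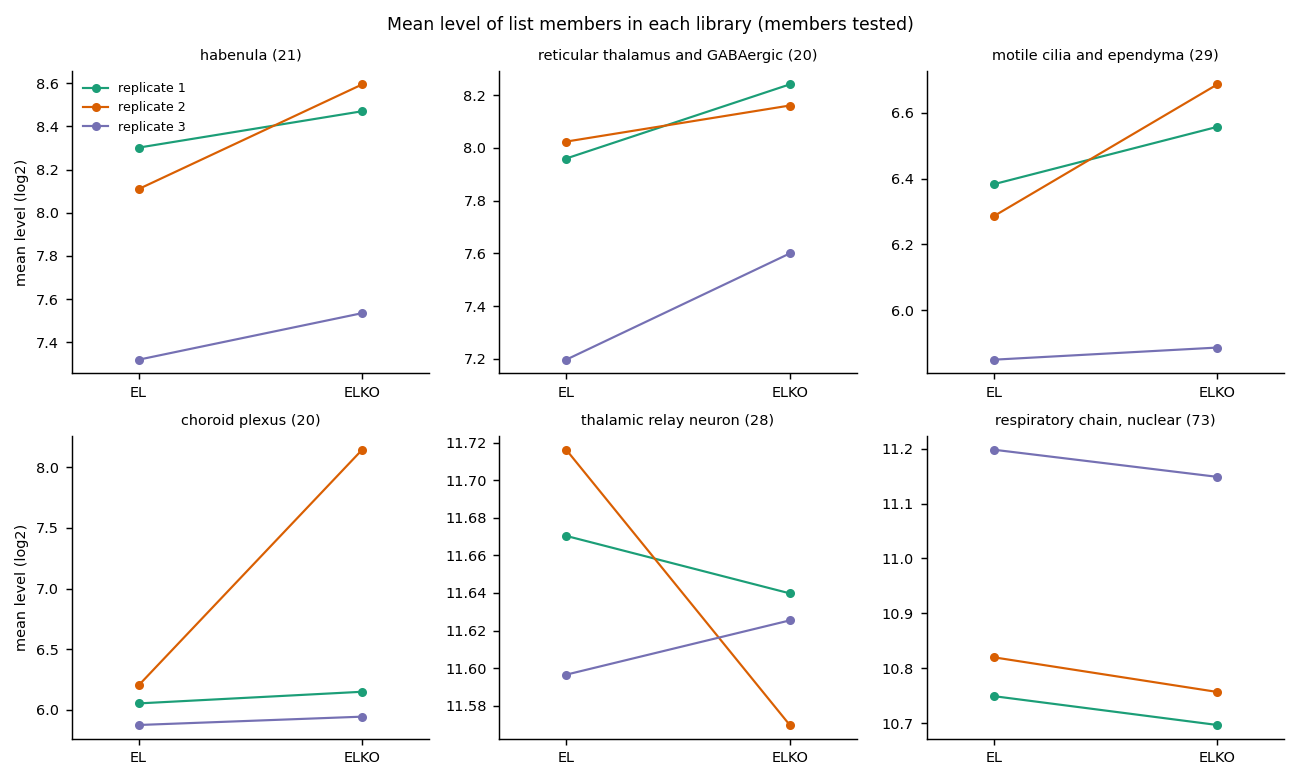
Mean deposited log2 level of the tested members of 6 gene lists (y axes, different ranges) in EL and ELKO (x axes), 1 point per library, with lines joining same-numbered replicates. Replicate 3 (purple) lies lowest in the habenula, GABAergic and cilia panels and highest in the respiratory chain panel in both genotypes, and the choroid plexus panel is set by ELKO replicate 2 at 8.14.

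Leaving out replicate 1 changed the counts. The fit of pairs 2 and 3 alone called 992 genes after adjustment (adjusted p under 0.05). ELKO was higher for 543 of them (3.45%) and lower for 449 (2.85%). Pair 1, which this fit did not use, went the other way for most of them. Of the 543 higher genes, 362 (66.7%) were lower in ELKO replicate 1 than in EL replicate 1, against 50.4% of all tested genes. Of the 449 lower genes, 319 (71%) were higher in pair 1, against 49.6% of all tested genes. Across the 15730 genes the differences of pairs 2 and 3 correlated at r = 0.439, those of pairs 1 and 3 at -0.108 and those of pairs 1 and 2 at -0.0182. These are correlations across genes of 1 tissue, which are not independent of each other. With 2 pairs the fit has 1 residual degree of freedom, and the rest of its error estimate is borrowed across genes.

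The values of 3 neuronal genes, chosen after their values were seen, show how pair 1 differed from pairs 2 and 3. Prkcd, the protein kinase C isoform that marks thalamic relay neurons, was 13.63, 14.01 and 14.72 in EL replicates 1, 2 and 3 and 13.64, 13.32 and 14.05 in ELKO replicates 1, 2 and 3. Pairs 2 and 3 differed by -0.69 and -0.67 (adjusted p = 0.000135 in the fit of these 2 pairs), while pair 1 differed by 0.01. Calb2, the calcium buffer calretinin, was 12.98, 12.35 and 10.72 in EL and 12.56, 12.95 and 12.36 in ELKO. It was higher by 0.60 and 1.64 in pairs 2 and 3 (adjusted p = 0.00265) and differed by -0.41 in pair 1. Gpr26, an orphan receptor of neurons, was 10.25, 9.43 and 7.87 in EL and 10.22, 10.39 and 8.88 in ELKO, with differences of 0.96 and 1.005 in pairs 2 and 3 and -0.03 in pair 1. Among the 28 relay neuron markers, 13 were called lower and 4 higher at an adjusted p under 0.05 in pairs 2 and 3. Of all genes, 2.85% were lower and 3.45% higher in that fit. The 3-pair fit called 0 at that threshold. At an unadjusted p under 0.05 pairs 2 and 3 gave 15 lower and 7 higher, and the 3 pairs 5 lower and 1 higher. Over all 15730 genes these counts were 1421 lower and 1637 higher in pairs 2 and 3, and 480 and 630 in the 3 pairs.

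**Figure D2:**
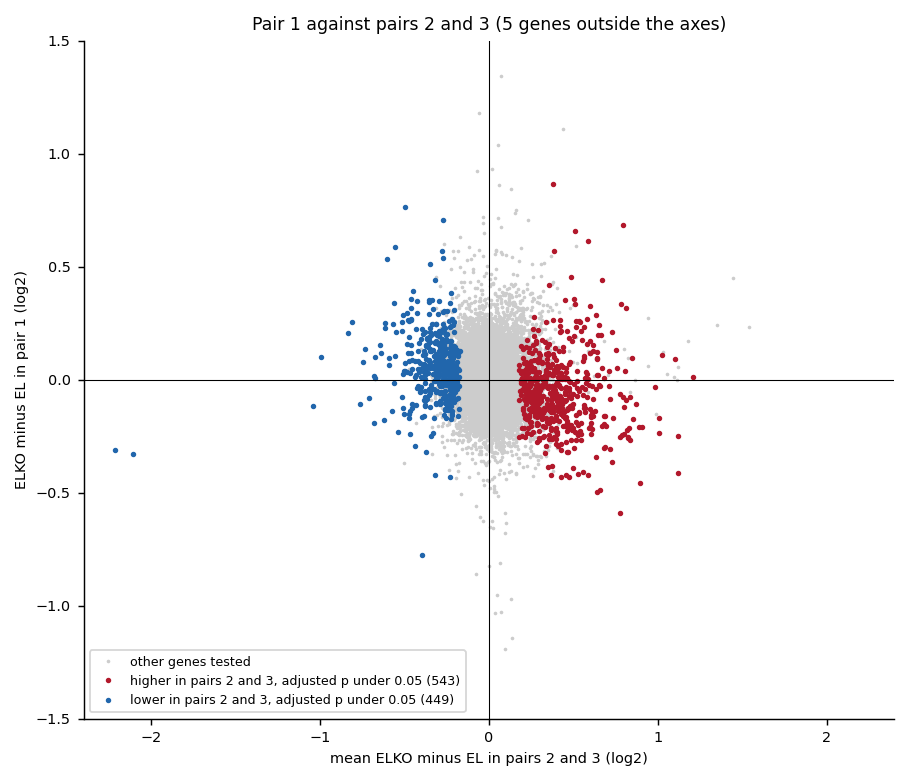
Difference ELKO minus EL in pair 1 (y axis, log2) against the mean difference in pairs 2 and 3 (x axis, log2), 1 point per tested gene, with the 543 higher and 449 lower genes of the 2-pair fit in red and blue. Most red points lie below and most blue points above the horizontal zero line, and 5 genes outside the axes are not drawn.

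Genes of the habenula, the small epithalamic nucleus at the dorsal edge of the thalamus that links forebrain to midbrain monoamine centres, were 1 of 3 lists with 12 members higher in ELKO. Of 22 listed genes 21 were tested. At an unadjusted p under 0.05, 12 were higher (57.1%, against 4.01% of all genes) and 1 was lower (4.76%, against 3.05%). In all 3 pairs 16 were higher (76.2%, against 14.9%). Their median difference was 0.30, and 0.14, 0.58 and 0.16 in pairs 1, 2 and 3, against 0.0033 over all genes tested. In bulk tissue, fewer cells of a type and less RNA per cell cannot be told apart, and the amount of habenula in a dissected thalamus is part of the measurement.

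Nwd2, whose transcript is concentrated in the medial habenula, had the smallest p of all genes. It was 10.46, 10.12 and 8.24 in EL replicates 1, 2 and 3 and 10.91, 10.95 and 8.75 in ELKO replicates 1, 2 and 3. ELKO was higher in each pair, but both replicates 3 lay far below all others, so the groups overlapped; the difference was 0.59 ± 0.08 (adjusted p = 0.691). Tac2, which encodes neurokinin B, was 8.32, 8.15 and 6.75 in EL and 8.66, 8.97 and 7.49 in ELKO (difference 0.63 ± 0.10). Tac1, the precursor of substance P, was 7.06, 6.95 and 6.26 in EL and 7.30, 7.53 and 6.97 in ELKO (difference 0.51 ± 0.10). In both, ELKO was above EL within each pair and replicate 3 was the lowest of its group. Gpr151, a habenular orphan receptor, was 9.35, 8.96 and 7.61 in EL and 9.45, 9.87 and 8.40 in ELKO (0.60 ± 0.15), and the G protein subunit gene Gng8 was 6.73, 6.63 and 6.10 in EL and 6.92, 7.03 and 6.70 in ELKO (0.40 ± 0.09). The nicotinic receptor subunit gene Chrna3 differed by 0.34 ± 0.10, and Pou4f1, the transcription factor that specifies habenular neurons, by 0.44 ± 0.16. Rgs8, the listed gene that was lower, was 12.46, 12.63 and 12.91 in EL and 12.49, 12.29 and 12.48 in ELKO (-0.25 ± 0.09). Syt6, a synaptotagmin outside the list and among the 12 largest differences on the higher side, followed the same pattern with 8.64, 8.52 and 7.06 in EL and 9.26, 9.29 and 7.46 in ELKO (0.60 ± 0.08).

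Without pair 1, 15 habenula genes were higher at an unadjusted p under 0.05 and 8 at an adjusted p under 0.05. Without pair 2, 5 were higher, and without pair 3, 12. Over all 15730 genes the unadjusted counts without pair 1, 2 or 3 were 1637, 248 and 389. After adjustment 3.45% of all genes were higher without pair 1. With no replicate block, or without ELKO replicate 1 and no block, the habenula count was 0. The median difference without ELKO replicate 1 was 0.14. In the 5xFAD libraries, which share none with this comparison, all 21 genes were lower in 5ELKO than in 5EL, with a median difference of -0.18 and 0 at an unadjusted p under 0.05.

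Inhibitory neuron genes were the second of these lists. The thalamic reticular nucleus is a shell of GABAergic neurons around the relay nuclei, and its genes stand for most inhibitory neurons of the mouse thalamus. Of 21 listed genes 20 were tested. At an unadjusted p under 0.05, 12 were higher (60%, against 4.01% of all genes) and 0 lower. The same number, 12, were higher in all 3 pairs (60%, against 14.9%). The median difference was 0.24, with 0.28, 0.12 and 0.23 in pairs 1, 2 and 3.

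Sst, the peptide somatostatin of inhibitory neurons, was 8.77, 8.95 and 7.25 in EL replicates 1, 2 and 3 and 9.45, 9.27 and 8.52 in ELKO replicates 1, 2 and 3. ELKO was above EL within each pair, and ELKO replicate 3 lay below EL replicates 1 and 2, so the groups overlapped; the difference was 0.76 ± 0.17. The 2 enzymes that make GABA were higher in each pair. Gad1 was 10.37, 11.10 and 8.60 in EL and 11.03, 11.21 and 9.52 in ELKO (0.56 ± 0.14) and Gad2 was 10.84, 10.70 and 8.65 in EL and 11.16, 10.98 and 9.99 in ELKO (0.64 ± 0.20). Slc32a1, the transporter that loads GABA into vesicles, was 9.12, 8.999 and 7.37 in EL and 9.39, 9.19 and 8.34 in ELKO (0.47 ± 0.15). Six3, a transcription factor of reticular neurons, was 8.002, 8.59 and 6.82 in EL and 8.57, 8.79 and 7.38 in ELKO (0.45 ± 0.09), and Reln, a secreted glycoprotein of interneurons, was 9.003, 8.39 and 7.30 in EL and 9.17, 8.87 and 7.81 in ELKO (0.39 ± 0.08). Gad1, Six3 and Slc32a1 overlap annotated antisense or noncoding genes, and reads were counted without regard to strand. In the 5xFAD libraries 15 of the 20 genes were higher in 5ELKO, with 0.62 for Gad1, 0.49 for Six3 and 0.17 for Sst, and 0 passed an unadjusted p of 0.05 there. Without pair 1, 8 were higher and 1 lower at an adjusted p under 0.05, against 3.45% and 2.85% of all genes. The lower one was Pvalb, with differences of 0.71, -0.15 and -0.39 in pairs 1, 2 and 3. Without pair 1, 2 or 3 the counts of higher genes at an unadjusted p under 0.05 were 9, 11 and 10. Over all 15730 genes they were 1637, 248 and 389. Without the block the inhibitory neuron count was 0. Without ELKO replicate 1 and with no block the count was also 0, with a median difference of 0.08.

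The 250 bases before the start of Sst are shown because its promoter is a textbook cyclic AMP target. They lie at chr16:23890845-23891094 on the minus strand (RefSeq, GRCm38.p6), and capitals mark the cAMP response element TGACGTCA, which ends 40 bases before the start.
Sst: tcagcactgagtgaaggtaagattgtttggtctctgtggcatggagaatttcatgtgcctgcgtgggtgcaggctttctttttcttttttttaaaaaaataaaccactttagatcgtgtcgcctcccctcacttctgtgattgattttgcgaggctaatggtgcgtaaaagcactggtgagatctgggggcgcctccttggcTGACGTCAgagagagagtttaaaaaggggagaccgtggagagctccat
The element TGACGTCA was searched on both strands of windows of 250 bases before to 50 after each start. It was found for 549 of 27025 genes (2.03%), for Sst alone among 16 inhibitory neuron genes with a window (6.2%), for 2 of 24 ciliary genes (8.3%, Dnah6 and Spag6l) and for 0 of 17 habenula genes.

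More relay neuron genes were lower than higher. Relay neurons are the excitatory cells that carry sensory and motor signals to cortex. Of 28 tested markers 5 were lower (17.9%, against 3.05% of all genes) and 1 higher (3.57%, against 4.01%), and their median difference was -0.06. With 5xFAD 21 of the 28 were higher in 5ELKO, with a median of 0.05 and 0 at an unadjusted p under 0.05. Ramp3, a receptor accessory protein, was 11.60, 11.80 and 12.50 in EL and 11.43, 11.36 and 11.98 in ELKO (-0.37 ± 0.07). Lef1, a Wnt pathway transcription factor of thalamic neurons, was 10.10, 10.40 and 10.68 in EL and 9.97, 9.91 and 10.16 in ELKO (-0.38 ± 0.08). Rgs16, a regulator of G protein signalling, was 11.70, 11.88 and 12.12 in EL and 11.62, 11.47 and 11.79 in ELKO (-0.27 ± 0.07). In each of these ELKO was lower in all 3 pairs, with the smallest gap in pair 1. Prkcd differed by -0.45 ± 0.14 over the 3 pairs. Zic4, the member that was higher, was 9.77, 9.68 and 8.75 in EL and 9.81, 10.11 and 9.46 in ELKO (0.39 ± 0.12).

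**Figure D3:**
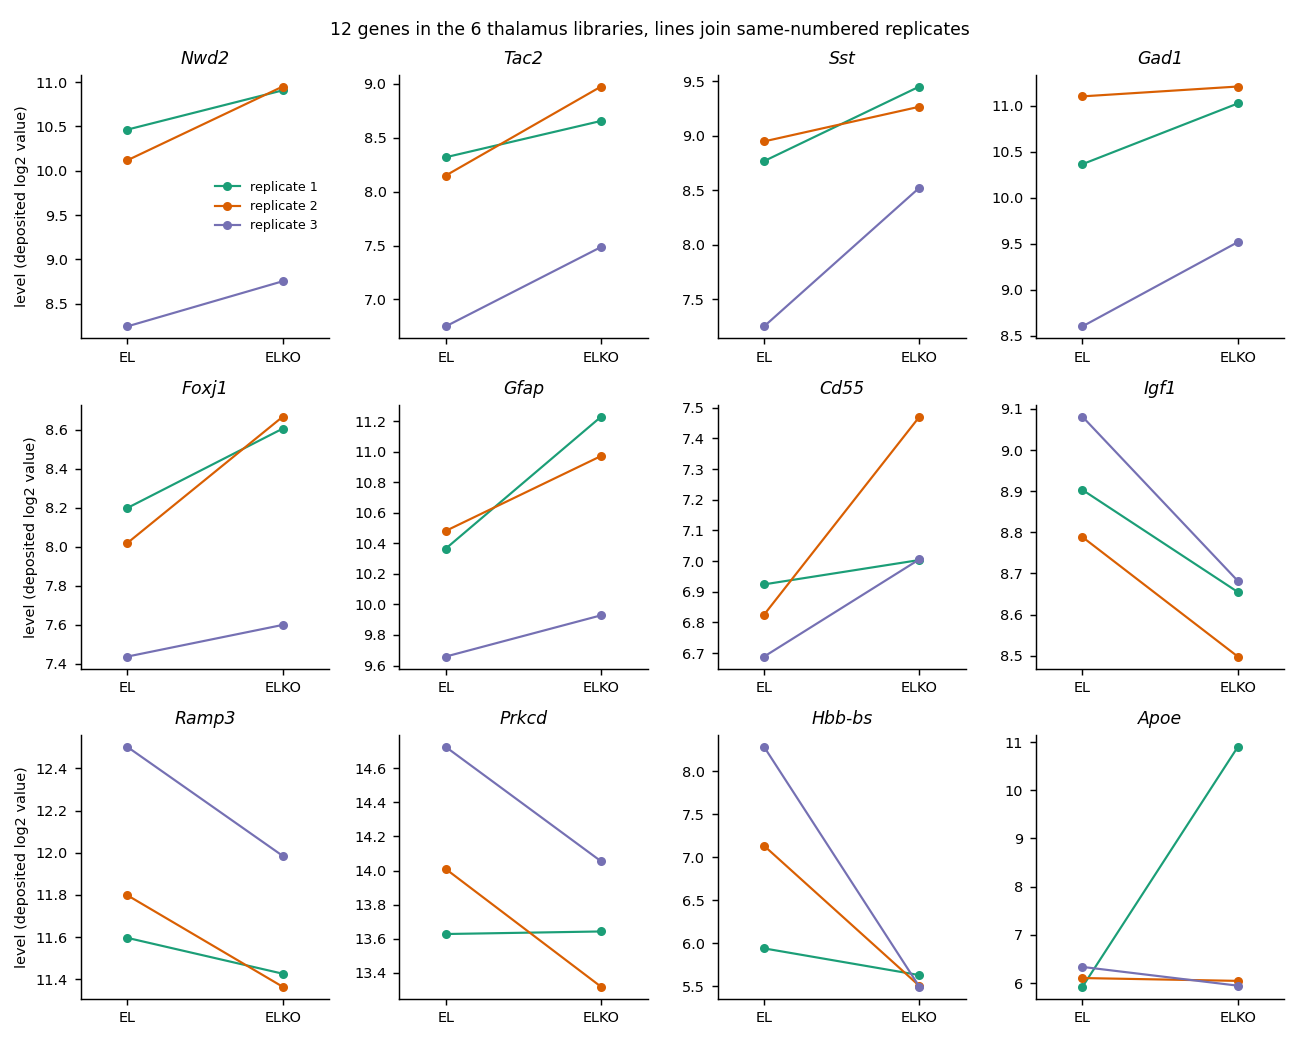
Deposited log2 level (y axes, different ranges that do not start at 0) of 12 genes in EL and ELKO (x axes), 1 point per library and a line for each same-numbered pair. Nwd2, Tac2, Sst, Gad1, Foxj1 and Gfap are higher in ELKO in each pair with replicate 3 low, Cd55 and Igf1 separate the groups, Prkcd is level in pair 1, and Apoe is high in ELKO replicate 1 alone.

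Peptide hormone genes spread widely between libraries, and Oxt and Gh were among the 12 largest differences on the higher side. Oxt, the hypothalamic peptide oxytocin, was 7.69, 6.38 and 6.09 in EL and 9.51, 7.39 and 6.12 in ELKO. It differed by 0.95 ± 0.30, with 1.81, 1.01 and 0.04 in the 3 pairs. Gh, pituitary growth hormone, was 4.88, 4.80 and 4.77 in EL and 6.97, 5.62 and 4.79 in ELKO, and its difference of 0.97 ± 0.34 came with 0.02 in pair 3. Avp, vasopressin, was 6.69, 6.31 and 5.70 in EL and 8.03, 6.42 and 5.73 in ELKO (0.50 ± 0.25, unadjusted p above 0.05). ELKO replicate 1 was the highest library for all 3 genes. Peg10, an imprinted gene derived from a retroelement, was 10.11, 9.19 and 8.30 in EL and 10.32, 10.02 and 8.92 in ELKO (0.56 ± 0.11).

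Genes of motile cilia, which beat on the ependymal cells that line the ventricles, made up the remaining list of the 3. Of 30 listed genes 29 were tested. At an unadjusted p under 0.05, 12 were higher (41.4%, against 4.01% of all genes) and 0 lower. In all 3 pairs 16 were higher (55.2%, against 14.9%). The median difference was 0.18, and 0.15, 0.42 and 0.03 in pairs 1, 2 and 3. Foxj1, the master transcription factor of motile ciliogenesis, was 8.20, 8.02 and 7.44 in EL replicates 1, 2 and 3 and 8.61, 8.67 and 7.60 in ELKO replicates 1, 2 and 3; the difference was 0.41 ± 0.10. Hydin, a protein of the central apparatus of the axoneme, was 6.53, 6.36 and 5.83 in EL and 6.96, 6.92 and 6.03 in ELKO (0.40 ± 0.09), and Dnah9, an outer arm dynein heavy chain, was 6.95, 6.78 and 6.24 in EL and 7.49, 7.43 and 6.32 in ELKO (0.42 ± 0.12). Pair 3 contributed little in each, and both replicates 3 were the lowest libraries. Without pair 2 the count of higher genes was 3, without pair 1 it was 13 and without pair 3 it was 14. Over all 15730 genes these counts were 248, 1637 and 389. Without ELKO replicate 1 and with no block the ciliary count was 0, with a median difference of 0.12. In the 5xFAD libraries 27 of the 29 were higher in 5ELKO, with a median of 0.12 and 0 at an unadjusted p under 0.05.

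Many ciliary promoters carry an X-box, the site of RFX transcription factors. The X-box was searched on both strands of the same windows. It was found for 403 of 27025 genes (1.49%) and for 4 of 24 ciliary genes with a window (16.7%, Spag6l, Tekt4, Pifo and Iqca), 1 of 16 inhibitory neuron genes (6.2%, Six3) and 0 of 17 habenula genes. Pifo, a cilia assembly gene that was 4.28, 4.39 and 4.17 in EL and 4.40, 4.76 and 4.24 in ELKO (0.18 ± 0.07), holds it 6 bases before 1 of its 2 annotated starts. The 250 bases before that start are at chr3:106001498-106001747 on the minus strand (RefSeq, GRCm38.p6), with the X-box in capitals.
Pifo: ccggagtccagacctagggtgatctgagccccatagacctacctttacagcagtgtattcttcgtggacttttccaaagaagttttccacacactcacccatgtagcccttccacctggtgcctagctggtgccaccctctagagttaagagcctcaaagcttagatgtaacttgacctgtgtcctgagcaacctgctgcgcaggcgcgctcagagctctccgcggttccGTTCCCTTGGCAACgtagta

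The choroid plexus, the secretory epithelium of the ventricles, was represented unequally. Its 20 tested genes had a median difference of 0.66, but 1.88 in pair 2 and 0.08 and 0.04 in pairs 1 and 3. Their mean level was 8.14 in ELKO replicate 2 and between 5.88 and 6.20 in the other 5 libraries. Ttr, the thyroxine carrier of cerebrospinal fluid, was 8.43, 9.37 and 7.72 in EL and 9.16, 14.66 and 7.94 in ELKO (2.09 ± 0.91, unadjusted p above 0.05). Clic6, the 1 choroid plexus gene at an unadjusted p under 0.05, was 7.93, 8.19 and 6.84 in EL and 7.94, 9.83 and 7.61 in ELKO (0.81 ± 0.27). Ace, angiotensin-converting enzyme, was 8.47, 8.07 and 7.46 in EL and 8.56, 9.85 and 7.88 in ELKO (0.76 ± 0.30). The ciliary genes were also highest in ELKO replicate 2, at a mean of 6.69, with ELKO replicate 1 at 6.56. The choroid plexus medians were 0.08, 1.88 and 0.04 in pairs 1, 2 and 3, and the ciliary medians 0.15, 0.42 and 0.03. The part of choroid plexus in the ciliary differences was not tested.

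Blood and liver transcripts separated single libraries. Hbb-bs, a beta globin gene, was 5.94, 7.13 and 8.28 in EL replicates 1, 2 and 3 and 5.63, 5.50 and 5.49 in ELKO replicates 1, 2 and 3. All ELKO libraries were below all EL libraries, at nearly 1 level, and the EL libraries spread widely; the difference was -1.58 ± 0.41. Hba-a1, an alpha globin gene with a near-identical copy in the genome, was 5.98, 6.96 and 8.45 in EL and 5.65, 5.76 and 5.43 in ELKO (-1.52 ± 0.45). Alas2, the heme synthesis enzyme of erythroid cells, was 3.52, 3.61 and 4.04 in EL and 3.43, 3.48 and 3.43 in ELKO (-0.28 ± 0.10). With 5xFAD the differences were 0.00 for Hbb-bs and -0.11 for Hba-a1. The 39 tested hepatocyte genes had a median of -0.14, which was -0.48 in pair 1 and 0.04 and 0.02 in pairs 2 and 3, and EL replicate 1 had their highest mean level, 5.35 against at most 5.05.

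More reactive astrocyte genes were higher than lower. Astrocytes raise intermediate filaments when they become reactive. Of 26 tested reactive astrocyte genes 3 were higher (11.5%, against 4.01% of all genes) and 2 lower (7.69%, against 3.05%). The median difference was 0.08, with -0.002, 0.10 and 0.11 in pairs 1, 2 and 3. Of the 26 differences 21 were positive, against 51.7% over all genes. In all 3 pairs 7 were higher (26.9%, against 14.9%) and 2 lower (7.69%, against 13.8%). Without pair 1, 2 were higher and 0 lower at an adjusted p under 0.05, against 3.45% and 2.85% of all genes. With 5xFAD 13 of the 26 were higher in 5ELKO. Gfap, the filament protein of reactive astrocytes, was 10.37, 10.48 and 9.66 in EL replicates 1, 2 and 3 and 11.23, 10.97 and 9.93 in ELKO replicates 1, 2 and 3. It was higher in each pair (0.86, 0.49 and 0.27) and the groups overlapped through replicate 3; the difference was 0.54 ± 0.11. Vim, vimentin, was 9.29, 9.38 and 9.09 in EL and 9.60, 9.69 and 9.12 in ELKO (0.22 ± 0.07), and Serpina3n, a secreted protease inhibitor, was 8.02, 7.95 and 7.61 in EL and 8.40, 8.02 and 7.90 in ELKO (0.24 ± 0.08). Cd44, a hyaluronan receptor on the same list, was lower without overlap, at 7.32, 7.26 and 7.98 in EL and 6.95, 7.11 and 7.12 in ELKO (-0.46 ± 0.13). Of 25 homeostatic astrocyte genes 0 were higher and 2 lower (8%, against 3.05% of all genes). Without pair 1, 3 of these 25 were higher and 0 lower at an adjusted p under 0.05, against 3.45% and 2.85% of all genes. Their median in that fit was -0.02. With 5xFAD, Gfap differed by 0.01. Without pair 1 Gfap differed by 0.38 (adjusted p = 0.00433 in the fit of 2 pairs), and without ELKO replicate 1 and with no block by 0.28.

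Of 18 tested complement genes 3 were higher (16.7%, against 4.01% of all genes) and 0 lower, and the median difference was 0.03. Without pair 1, 1 was higher and 0 lower at an adjusted p under 0.05, against 3.45% and 2.85% of all genes. With 5xFAD 7 of the 18 were higher in 5ELKO, with a median of -0.02. Cd55, decay-accelerating factor, was 6.92, 6.83 and 6.69 in EL and 7.003, 7.47 and 7.01 in ELKO (0.35 ± 0.11), without overlap between the groups. C4b, component 4, was 7.94, 7.69 and 7.25 in EL and 8.07, 7.94 and 7.50 in ELKO (0.21 ± 0.07), with overlap.

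Microglia are the brain cells in which the receptor is known. Of 27 tested homeostatic microglia genes 0 were higher and 1 was lower (3.7%, against 3.05% of all genes), with a median of -0.03. P2ry12, the purinergic receptor of surveying microglia, was 8.43, 8.57 and 8.79 in EL and 8.34, 8.37 and 8.72 in ELKO (-0.12 ± 0.06, unadjusted p above 0.05). Of 33 tested genes of disease-associated microglia, the state that plaque-associated microglia take on, 4 were higher (12.1%, against 4.01% of all genes). On this list 1 was lower (3.03%, against 3.05%) and 10 were higher in all 3 pairs (30.3%, against 14.9%), with a median of 0.06. Without pair 1, 2 were higher and 1 lower at an adjusted p under 0.05, against 3.45% and 2.85% of all genes. With 5xFAD 12 of the 33 were higher in 5ELKO, with a median of -0.02. Igf1, insulin-like growth factor 1, was the lower one, at 8.90, 8.79 and 9.08 in EL replicates 1, 2 and 3 and 8.65, 8.50 and 8.68 in ELKO replicates 1, 2 and 3. The groups did not overlap, and the pair differences were -0.25, -0.29 and -0.40; the difference was -0.31 ± 0.06. It kept an unadjusted p under 0.05 without the block and without ELKO replicate 1 and no block (-0.33). In the 5xFAD libraries Igf1 differed by 0.15. Igf1 overlaps an antisense gene, Igf1os, and is also made by neurons.

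Lgals3bp, a secreted galectin-binding protein of the disease-associated list, was 8.08, 8.02 and 7.71 in EL and 8.36, 8.35 and 7.97 in ELKO (0.29 ± 0.06). Among 43 lysosomal genes 4 were higher (9.3%, against 4.01% of all genes) and 0 lower, with a median of 0.03. In all 3 pairs 13 were higher (30.2%, against 14.9%). Without pair 1, 1 of the 43 was higher at an adjusted p under 0.05, against 3.45% of all genes. With 5xFAD 18 of the 43 were higher in 5ELKO. Ctsd, cathepsin D, was 12.75, 12.79 and 12.82 in EL and 12.95, 12.93 and 12.86 in ELKO (0.13 ± 0.05), and Gusb, beta-glucuronidase, was 8.14, 8.10 and 8.13 in EL and 8.43, 8.35 and 8.29 in ELKO (0.23 ± 0.06). Neither overlapped between groups. Ctsl, cathepsin L, was 10.81, 10.80 and 10.93 in EL and 10.89, 10.91 and 11.07 in ELKO (0.11 ± 0.04), with overlap. The receptors with inhibitory motifs and their phosphatases (10 tested) and the receptors with activating motifs and their kinases (12 tested) held 0 genes at an unadjusted p under 0.05 in either direction, and the Toll-like receptor and NF-kB genes (25 tested) held 1 higher and 0 lower.

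**Figure D4:**
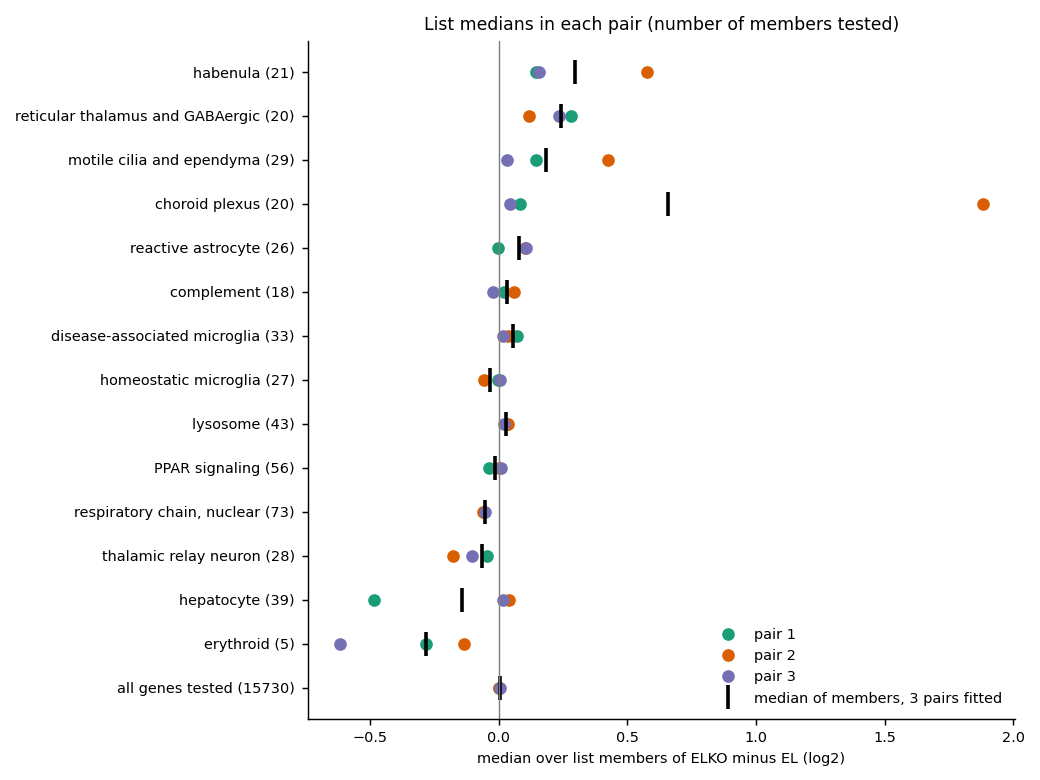
Median difference ELKO minus EL (x axis, log2) over the tested members of 14 gene lists and of all genes tested (y axis, with the number of members), for pairs 1, 2 and 3 (coloured points) and for the fit of 3 pairs (black bars). The habenula, GABAergic and cilia medians are above 0 in each pair, the choroid plexus median is 1.88 in pair 2 and near 0 in the others, and the immune and lysosome medians lie within about 0.1 of 0.

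The PPAR-linked genes on which the study followed up in mice with amyloid held 0 of 10 at an unadjusted p under 0.05. In ELKO 4 of the 10 were higher, with a median of -0.07, and -0.37, 0.05 and 0.04 in pairs 1, 2 and 3. With 5xFAD 9 of the 10 were higher in 5ELKO, with a median of 0.18 and 1 at an unadjusted p under 0.05. PPARs are lipid-sensing nuclear receptors. Pparg itself was 4.28, 4.38 and 4.30 in EL and 4.319, 4.33 and 4.30 in ELKO (-0.01 ± 0.05, unadjusted p above 0.05). Abca1, the cholesterol efflux transporter, was 10.06, 10.15 and 10.01 in EL and 10.77, 10.22 and 10.05 in ELKO (0.27 ± 0.13, unadjusted p above 0.05), and was highest in ELKO replicate 1, the library with high mouse Apoe; without pair 1 it differed by 0.05. Lpl, lipoprotein lipase, was 7.53, 7.07 and 6.92 in EL and 7.35, 7.58 and 7.22 in ELKO (0.21 ± 0.13, unadjusted p above 0.05). Without pair 1 Lpl differed by 0.40 (adjusted p = 0.0335), the 1 gene of the 10 called in that fit. Plin2, a lipid droplet coat protein, was 7.31, 7.30 and 7.25 in EL and 7.27, 7.49 and 7.42 in ELKO (0.10 ± 0.08, unadjusted p above 0.05). Cyp2e1, Apoa2 and Pck1, genes best known from liver, differed by -0.34, -0.24 and -0.28, with EL replicate 1 the highest library in each. Of the 56 tested genes of the wider PPAR pathway list, 3 were higher (5.36%, against 4.01% of all genes) at an unadjusted p under 0.05. At the same threshold 5 were lower (8.93%, against 3.05%), and the median was -0.02. Without pair 1, 5 were higher and 2 lower at an adjusted p under 0.05, against 3.45% and 2.85% of all genes. Of the 73 nuclear genes of the respiratory chain 0 were higher and 9 lower (12.3%, against 3.05% of all genes) at an unadjusted p under 0.05. In all 3 pairs 32 were lower (43.8%, against 13.8%), but each by little: the median was -0.05, and -0.06, -0.06 and -0.05 in the 3 pairs. Without ELKO replicate 1 and with no block this median was 0.02.

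The 12 largest differences on the lower side followed mostly 1 order of libraries, highest in EL replicate 3. Abhd12b, a lipase-like hydrolase, was 8.40, 9.002 and 9.99 in EL and 8.28, 7.97 and 8.94 in ELKO (-0.73 ± 0.18). Pcp4, a calmodulin regulator of neurons, was 10.98, 11.64 and 12.61 in EL and 10.88, 11.04 and 11.68 in ELKO (-0.55 ± 0.14), and Wnt9b, a secreted Wnt ligand, was 8.40, 8.60 and 9.27 in EL and 8.23, 8.003 and 8.63 in ELKO (-0.47 ± 0.10). Xylt2, a xylosyltransferase of proteoglycan synthesis, was 10.68, 10.84 and 11.24 in EL and 10.44, 10.41 and 10.74 in ELKO (-0.39 ± 0.06). Pstpip1, Gm42730, Iyd and Tnfrsf12a differed by -0.52, -0.50, -0.44 and -0.43. In these 8 genes EL replicate 3 was the highest library and the gap in pair 1 was the smallest. Neat1, the nuclear RNA that builds paraspeckles, differed from them in its largest gap, which was in pair 1. It was 9.91, 10.32 and 10.43 in EL replicates 1, 2 and 3 and 9.14, 9.91 and 10.04 in ELKO replicates 1, 2 and 3; the difference was -0.52 ± 0.08, and in the 5xFAD libraries it was 0.47. Malat1, its chromosomal neighbour and another nuclear RNA, was 11.19, 11.70 and 11.27 in EL and 11.09, 11.03 and 11.02 in ELKO (-0.34 ± 0.10), without overlap.

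The direction of these genes was compared with that of the same deletion in mice with 5xFAD, which is measured in separate libraries. Of the 206 genes higher at the exploratory threshold, 92 (44.7%) were also higher in 5ELKO than in 5EL, against 51% of all tested genes. Of the 82 lower genes, 29 (35.4%) were also lower in 5ELKO, against 49% of all tested genes. The interaction, which tests whether the deletion differs between mice with and without 5xFAD, was fitted on all 15 libraries and 15805 genes. It called 0 genes (0%) after adjustment and 433 (2.74%) when the p was left unadjusted.

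**Figure D5:**
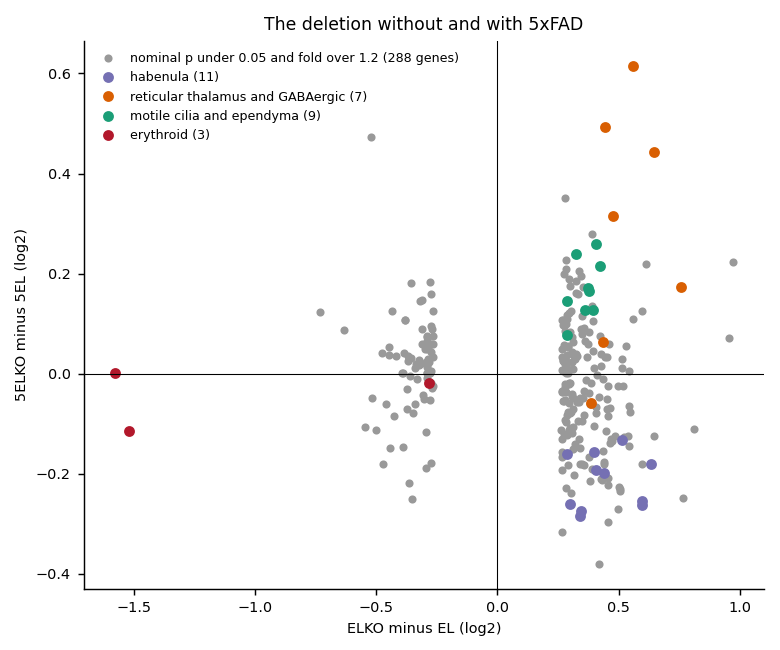
Difference 5ELKO minus 5EL (y axis, log2) against ELKO minus EL (x axis, log2) for the 288 genes at an unadjusted p under 0.05 and fold over 1.2 in ELKO against EL, with members of 4 lists coloured. The habenula genes are right of and below zero, most GABAergic and all ciliary genes are right of and above zero, and the globin genes lie at the far left near the horizontal zero line.

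The libraries did not overlap between EL and ELKO for 721 of the tested genes (4.58%) and between 5EL and 5ELKO for 165 (1.05%). On both lists were 5 genes, which is 0.693% of the 721 and 3.03% of the 165, no larger than the shares over all tested genes. Their values are a description, and they were chosen after their values were seen. Tfeb, the transcription factor that drives lysosomal genes, was 7.53, 7.62 and 7.60 in EL and 7.68, 7.76 and 7.69 in ELKO, and from 7.50 to 7.61 in 5EL and from 7.65 to 7.72 in 5ELKO. It was higher without Lilrb4a by 0.13 ± 0.06, unadjusted p above 0.05 without 5xFAD and by 0.11 with it. Psen2, which encodes presenilin 2, a catalytic subunit of gamma-secretase, was 8.51, 8.51 and 8.47 in EL and 8.54, 8.54 and 8.55 in ELKO, and from 8.42 to 8.53 in 5EL and from 8.55 to 8.60 in 5ELKO. Its differences were 0.04 ± 0.06, unadjusted p above 0.05 without 5xFAD and 0.10 with it. Neither gene passed an unadjusted p of 0.05 in ELKO against EL. In the other 3 (Ifitm1, Ubl7 and Ifit1bl1) the direction was opposite with 5xFAD.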

How the data were processed

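Bulk RNA-seq was made from polyadenylated RNA of the thalamus. The study's notes name Trimmomatic 0.39 for trimming, HISAT2 2.2.1 for alignment (GRCm38) and featureCounts 2.0.3 for gene counts, made without regard to strand. The authors deposited log2 values of 29659 genes per library, and the transform that gave them is not given in the sources used here. Depth is unknown, so no counting error is given, and the test was run on the log2 scale.

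ELKO (n = 3) was compared with EL (n = 3) with limma 3.58.1 in R 4.3.3 (lmFit with replicate number and genotype, eBayes with a trend) and Benjamini-Hochberg adjustment. The genes tested were those whose deposited value reached 3.32 in 3 or more of these libraries. All 15 pairs of the 6 libraries were compared and 0 held identical values. Same-numbered EL and ELKO libraries deviated from their group means together (correlations of 0.453, 0.326 and 0.743 across genes for replicates 1, 2 and 3, against -0.626 to 0.376 for different numbers), so the numbers were used as pairs. What a number stands for is not given in the sources used here. Nothing states that replicates are separate litters or days. In the paired fit the p-values measure the spread of the differences among the 3 pairs, with an error estimate partly borrowed across genes. The spread between replicate numbers is taken out by the block. In the fits without the block the p-values measure the spread between the libraries of a group.

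The rule for named genes took the Lilr family, mouse Apoe and its neighbours, the 10 PPAR-linked genes of the study, sex-linked genes, genes called after adjustment, the 12 largest differences each way with p under 0.05, a fold over 1.2 and 3 pairs of one sign, up to 4 members of each of 43 gene lists with the smallest p, and tested genes within 1 Mb of Lilrb4a. The text names part of these, and other list members after their values were seen. A few genes that the rule names are not reported here. The genes, lists and tests were chosen with earlier results of these data known. Of 29659 symbols, 28214 were in GENCODE M21, from which coordinates were taken. Promoter windows are from RefSeq (GRCm38.p6). The Lilrb4a and Lilr4b coding sequences were aligned with Biopython 1.88. The fit was tested on simulated data of 15730 genes, with independent errors and the same change in each pair. At an adjusted p under 0.05, 93% of genes changed by 0.5 log2 and 100% of those changed by 1 log2 were recovered. In that run 15 unchanged genes were also called, and 2 in a run without changes. In the real libraries pair 1 went against pairs 2 and 3 for many genes, so these shares do not give the recovery in these data. Alternatives were no replicate block, each pair or single libraries left out, other filters, other variance priors, all 15 libraries in 1 fit, and recentred libraries. Figures were drawn with matplotlib 3.10.9 in Python 3.11.15.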

Additional observations from a re-analysis of the deposited data

Results flagged for a closer look

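In 3 tested genes the libraries lay apart in opposite directions without and with 5xFAD, with each ELKO library above all EL libraries and each 5ELKO library below all 5EL libraries. Ifitm1, an interferon-induced membrane protein gene, was 4.94, 4.87 and 4.93 in EL and 4.95, 5.03 and 5.08 in ELKO, a difference of 0.11, against -0.13 with 5xFAD. Ifit1bl1, a gene of the interferon-induced tetratricopeptide family, was 5.01, 5.06 and 4.92 in EL and 5.16, 5.07 and 5.21 in ELKO, a difference of 0.15, against -0.09 with 5xFAD. Ubl7, a ubiquitin-like protein gene, was 9.64, 9.67 and 9.68 in EL and 9.69, 9.69 and 9.77 in ELKO, a difference of 0.054, against -0.08 with 5xFAD. All 3 were chosen after their values were seen, for this opposite separation, so no p-value is given for them; the interaction fit called 0 genes after adjustment. The 5 genes apart in both comparisons, these 3 among them, are 3.03% of the 165 genes apart with 5xFAD, against 4.58% of all tested genes that were apart without it. No outlier test was run within the groups of 3 libraries.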

How the results depend on the processing

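The count at an adjusted p under 0.05 was 0 in the paired comparison of ELKO with EL and in each alternative except the fit without replicate 1, so leaving out each pair in turn gave 0 to 992. Leaving out a pair in turn gave 145 to 746 genes higher and 50 to 357 lower at an unadjusted p under 0.05 with a fold over 1.2, and 248 to 1637 higher and 141 to 1421 lower at an unadjusted p under 0.05 alone. Without the replicate block the counts with the fold were 18 higher and 26 lower, and 85 and 88 without it. Without ELKO replicate 1 and no block they were 25 and 25 with the fold and 76 and 82 without it, without ELKO replicate 2 and no block 16 and 14, then 40 and 42, and without EL replicate 1 and no block 312 and 248 with the fold. With all 15 libraries in 1 fit and no block, 26 were higher and 59 lower with the fold, and 166 higher and 207 lower without it. With no filter the counts with the fold were 103 and 48. The count of genes that differed between replicate numbers was 0 to 3705. The interaction with 5xFAD stayed at 0 genes after adjustment, with 789 at an unadjusted p under 0.05 with a replicate block for EL and ELKO and 941 without replicate 1. The cause of these changes was not tested.

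When a pair was left out, Apoe ran from -0.224 to 2.459, Zbtb16 from -0.060 to 0.614, Plin4 from -0.068 to 0.437, Alb from -1.42 to 0.187, Tekt4 from -0.209 to 0.172 and Pparg from -0.027 to 0.018. Without ELKO replicate 1 and no block, the sign turned for Apoe (-0.125), Avp (-0.156), Zbtb16 (-0.068), Plin4 (-0.030) and Tekt4 (-0.112). Without ELKO replicate 2 and no block it turned for Chrna3 (-0.038) and Kl (-0.12), and without EL replicate 1 and no block for Alb (0.077) and Tekt4 (-0.057).

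Depth is unknown, 3 libraries a group limit the precision, and the deposited transform could not be varied.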

Other observations

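Heat shock genes, which encode protein-folding chaperones, held 4 higher and 0 lower of 34 tested members at an unadjusted p under 0.05. The 4 are 11.8%, against 4.01% of all genes. The median difference was 0.03, with 0.05, 0.09 and -0.02 in pairs 1, 2 and 3. Without pair 1, 0 were higher and 0 lower at an adjusted p under 0.05, against 3.45% and 2.85% of all genes. With 5xFAD 18 of the 34 were higher in 5ELKO. Hspa1a, an inducible chaperone, was 6.78, 6.80 and 6.55 in EL replicates 1, 2 and 3 and 7.08, 7.12 and 6.86 in ELKO replicates 1, 2 and 3, so each ELKO library was above all EL libraries. Its difference was 0.31 ± 0.07 (SE). Hspb8, a small heat shock protein gene, was 7.21, 7.53 and 7.02 in EL and 7.51, 7.96 and 7.20 in ELKO, a difference of 0.30 ± 0.08, with overlap. Hspa1a has a near-identical copy, Hspa1b, which differed by 0.39 ± 0.11, and reads of the pair may be divided between them.

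Genes of fibroblasts and meninges held 3 higher (15.8%, against 4.01% of all genes) and 0 lower of 19, with a median of 0.12. Col1a2, a collagen chain, was 8.58, 8.59 and 8.45 in EL and 8.75, 8.86 and 8.53 in ELKO, a difference of 0.17 ± 0.06. Igf2, a growth factor of meninges and choroid plexus, differed by 0.45 ± 0.18 and was highest in ELKO replicate 2, the library with high choroid plexus genes. The part of that library in the list was not tested.

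The 24 cholesterol synthesis genes had medians of -0.11, 0.06 and 0.23 in pairs 1, 2 and 3, with 1 member higher and 0 lower at an unadjusted p under 0.05. Without pair 1, 6 were higher and 0 lower at an adjusted p under 0.05, against 3.45% and 2.85% of all genes. The 24 glucocorticoid-responsive genes had medians of 0.36, -0.09 and 0.04, with 2 higher and 1 lower. Without pair 1, 0 were higher and 2 lower after adjustment, against 3.45% and 2.85% of all genes. In both lists the pairs differed in sign. Of the 21 amyloid precursor and secretase genes and the 23 antigen presentation genes, 0 passed an unadjusted p of 0.05 in limma, and 0 passed after adjustment.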
